A study of Mus musculus with 2112 samples.

Results

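Short-term hematopoietic stem cells (ST-HSC) from the bone marrow of old and young mice were compared after 2 h of stimulation with the Toll-like receptor ligands LPS and Pam3CSK4. The comparison used stimulated single-cell wells whose sort label is ST, leaving out wells that carry the quality label fewGenes, pctTrans or plasma. This kept 260 stimulated ST single-cell wells, 69.9% of the wells with these labels, of which 49.6% came from 4 old and the rest from 5 young mice, out of 1408 kept single cells and 2112 wells in the whole series. All cells were sorted by surface markers and grown in HSPC medium at 37 C and 5% CO2, and every cell of this comparison received LPS at 100 ng per ml together with Pam3CSK4 at 1 µg per ml. Unstimulated ST-HSC from 4 old and 3 of the young mice, in the same medium, were the reference. Ages in months, strain and sex are not stated in the labels, and the surface markers of the ST gate are not named there. Single cells and wells of 100 cells were sequenced with SMART-seq2, a full-length protocol without molecular identifiers.

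Hematopoietic stem cells sit at the top of blood formation, and the short-term class reconstitutes the blood for a limited period before giving way to more committed multipotent progenitors (MPP). LPS is a cell wall component of Gram-negative bacteria sensed by Toll-like receptor 4, and Pam3CSK4 is a synthetic lipopeptide sensed by Toll-like receptors 1 and 2. Both receptors signal through MyD88 to NF-kB, which drives genes such as Nfkbia, Icam1 and Tnf, and receptor 4 also drives an interferon branch. With age the stem cell compartment of mice is known to expand and to shift its output toward myeloid and platelet lineages.

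The animal was the replicate. Counts of an animal's kept cells were summed, which gave 7202742 to 19536582 counts per animal from 14 to 40 cells, and values per animal are in CPM, counts relative to a library size scaled by the TMM method. The ribosomal precursor Rn45s took 12.2 to 26.5% of a sum. The share of wells kept was 73.4% ± 14.1 (SD, n = 4) in old and 71.6% ± 20.2 (SD, n = 5) in young mice (two-sided exact permutation p = 0.937). Old mice 2 and 3 and young mice 1, 2 and 3 were on plates 1 and 2 (plate set A), and old mice 2-2 and 2-3 and young mice 2-1 and 2-3 were on plate 4 (plate set B), so both ages occur in both sets. Xist, the RNA that silences an X chromosome in females, was at 1659 ± 389.4 CPM in old and 1588 ± 777 CPM in young mice. Of the stem and progenitor surface genes, Kit, Cd34, Ly6a and Flt3 were counted in every animal, Slamf1 in 1 young animal, and Cd48 in none.

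Across 12733 genes, edgeR's quasi-likelihood test called 4 genes higher in old stimulated ST-HSC (0.0314% of the genes tested) and 1 lower (0.00785%) at an adjusted p under 0.05. Actg1, Ydjc, Frmd4b and Amacr were higher and Serinc3 was lower. Actg1 and Serinc3 were counted in most or all cells, whereas the other 3 genes were counted in few cells. At an unadjusted p under 0.05, 4.15% of the genes tested were higher in old and 2.4% lower. The values of the old and young animals did not overlap for 1.14% of the genes tested on the higher side and for 55 genes (0.432%) on the lower side. The median log2 fold change over all genes tested was 0.02, and 51.4% of genes had a value above 0.

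Actg1 encodes cytoplasmic gamma-actin, a building block of actin filaments. Its level in the old animals was 7732 CPM in mouse 2, 8581 in mouse 2-2, 8012 in mouse 2-3 and 7914 in mouse 3. In the young animals it was 3894 CPM in mouse 1, 5070 in mouse 2, 5320 in mouse 2-1, 5409 in mouse 2-3 and 4612 in mouse 3. Every old animal lay above every young animal. The means were 8060 ± 366.3 CPM (SD, n = 4) and 4861 ± 622.6 CPM (SD, n = 5), a ratio of 1.66, and the log2 fold change was 0.72 ± 0.09 (SE; edgeR adjusted p = 0.00494). Within plate set A the log2 fold change was 0.80, and within plate set B it was 0.65. The call was lost without old mouse 2-2 (adjusted p = 0.0805), without old mouse 3 (0.0732), without the plate set in the fit (0.0639) and with only the 9 stimulated sums (0.238).

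**Figure D1:**
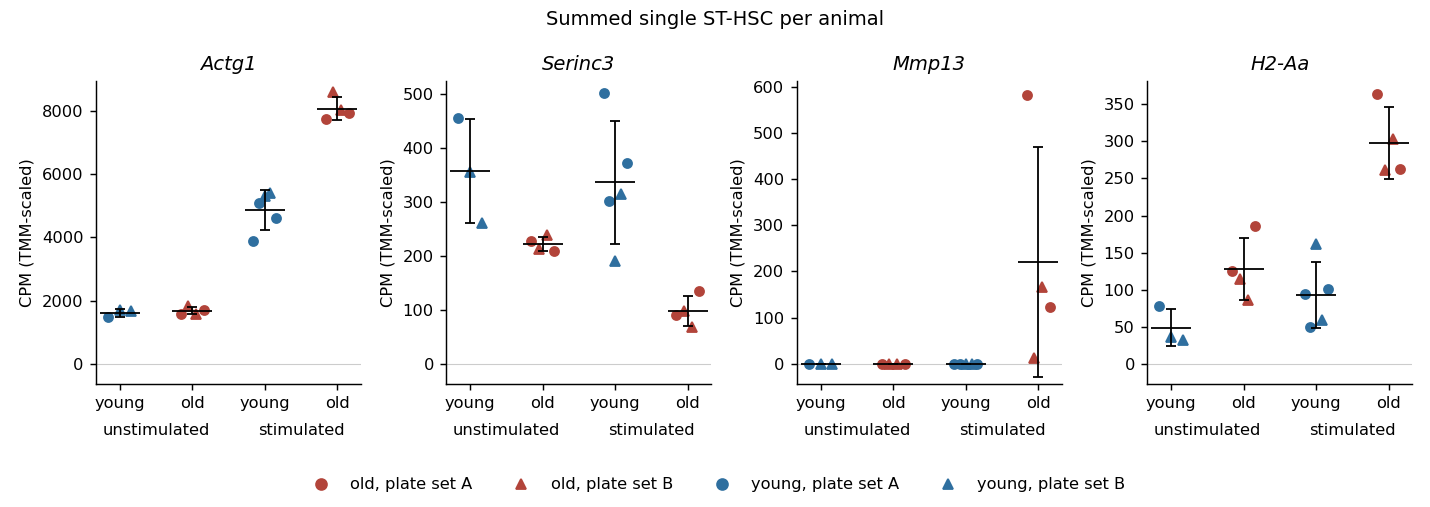
Level of Actg1, Serinc3, Mmp13 and H2-Aa (vertical axis, TMM-scaled CPM) in summed single ST-HSC of each animal, by age and stimulation; points are animals (circles plate set A, triangles plate set B), and bars are the mean ± SD over animals. Actg1 lies at 7732 to 8581 CPM in the stimulated old animals and at 3894 to 5409 CPM in the stimulated young ones, while the unstimulated groups lie together near their means of 1672 and 1610 CPM.

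Without stimulation the ages had similar Actg1 levels, 1672 ± 110.7 CPM in 4 old and 1610 ± 115.2 CPM in 3 young mice (log2 fold change 0.08, unadjusted edgeR p = 0.431). Stimulated levels were above the unstimulated ones in both ages. The age difference after stimulation exceeded that without it by 0.64 ± 0.13 on the log2 scale, which did not pass the test over all genes (edgeR adjusted p = 0.496). Actb, the other cytoplasmic actin, was at 6541 ± 3588 CPM in old and 7606 ± 3685 CPM in young stimulated ST-HSC, and its animals overlapped. The transcripts of Actg1 and Actb are alike in their coding part, so reads shared between them were divided by estimate.

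The Actg1 promoter is shown because Actg1 is the gene with the smallest p and a textbook target of serum response factor (SRF), which binds the CArG box. The sequence is RefSeq's, build GRCm38.p6, chr11:120348531-120348630 on the minus strand, bases -135 to -36 from the start of the gene, with the CArG box in capitals at -90 to -81.
Actg1: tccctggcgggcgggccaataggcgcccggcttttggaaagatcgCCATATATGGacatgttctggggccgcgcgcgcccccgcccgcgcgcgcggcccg
The CArG box reads the same on both strands, and 1.63% of the 32851 promoters in the RefSeq table hold it. Among promoters of the actin cytoskeleton genes listed here, 4 of 47 do (8.51%). This describes letters in a window and says nothing about binding. Of 19 tested genes in a list of SRF targets, 14 (73.7%) had a log2 fold change above 0, against 51.4% of all genes, with a median of 0.52. Actg1 was the 1 called member of that list, and Actb and Srf itself were not called.

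In single cells, Actg1 was counted in all 260 cells. The median cell held 6972 CPM in old (quartiles 4571 and 9227) and 4082 CPM in young mice (quartiles 3147 and 5762). The medians of the 4 old animals, from 5659 to 8804 CPM, all lay above those of the 5 young animals, from 3643 to 4459 CPM. The cell with the most Actg1 counts gave 2.79% of the old counts.

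**Figure D2:**
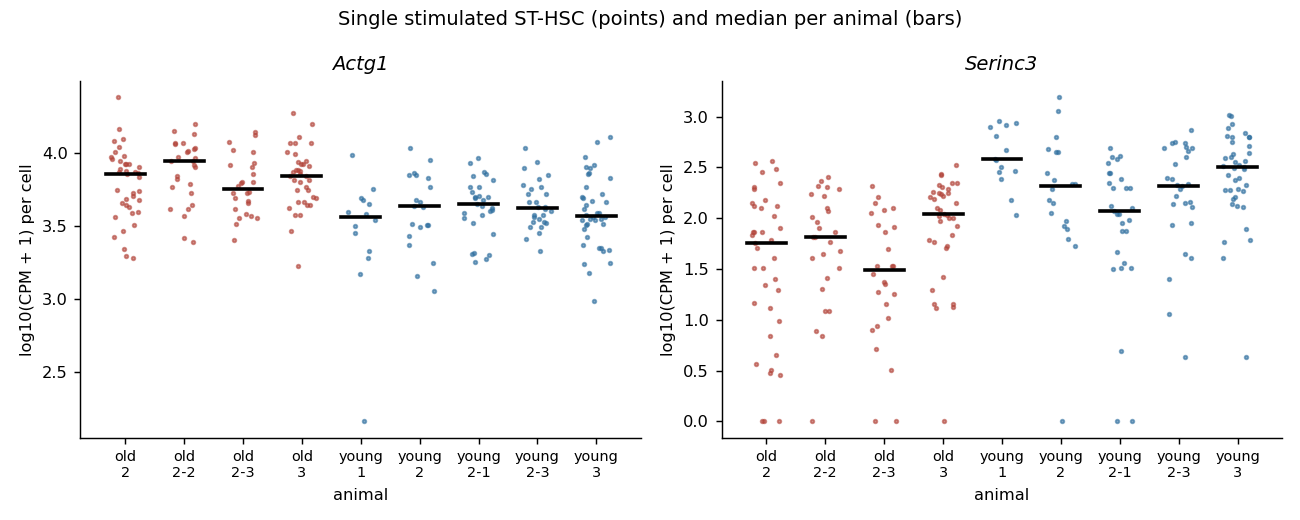
Single stimulated ST-HSC (points) by animal for Actg1 and Serinc3, as log10(CPM + 1) per cell on the vertical axis; the black bar is the median cell of the animal. For Actg1 the bars of the 4 old animals lie above those of the 5 young animals, and for Serinc3 they lie below.

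Serinc3 encodes a multipass membrane protein of the serine incorporator family, of which members limit the infectivity of retroviruses. It was at 90.6, 98.3, 68.96 and 134.9 CPM in old mice 2, 2-2, 2-3 and 3. In young mice 1, 2, 2-1, 2-3 and 3 it was at 502.5, 301.4, 191.3, 314.96 and 372.9 CPM. The highest old animal lay below the lowest young animal. Serinc3 fell from 336.6 ± 113.6 CPM in young to 98.2 ± 27.4 CPM in old mice, a log2 fold change of -1.73 ± 0.24 (SE; edgeR adjusted p = 0.0132). In plate set A alone it differed by -1.79 on the log2 scale, and in set B alone by -1.57. The call was lost without any 1 of the 4 old mice (adjusted p from 0.0732 to 0.0876), without young mouse 2-3 (0.0904) and with only the 9 stimulated sums (0.243).

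Serinc3 was also lower in old mice outside the stimulated ST-HSC. Unstimulated ST-HSC held 221.8 CPM in old and 357.6 CPM in young mice (log2 fold change -0.72, unadjusted edgeR p = 0.0133). No gene passed an adjusted p under 0.05 in that comparison. Stimulated long-term HSC (LT-HSC) held 144.8 against 353.4 CPM (log2 fold change -1.28, edgeR adjusted p = 0.00404), and stimulated MPP held 119.2 against 332.5 CPM (-1.47, adjusted p = 0.017). Its age difference in ST-HSC was not called as different from that in LT-HSC (adjusted p = 0.778) or in MPP (adjusted p = 1.0). The related genes were not called: Serinc1 was at 287.6 ± 44.7 CPM in old and 256.5 ± 77.6 CPM in young mice, and Serinc5 at 31.4 ± 17.3 and 21.7 ± 12.6 CPM.

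Ydjc, Frmd4b and Amacr were called on counts from a few cells. Ydjc, which encodes a carbohydrate deacetylase-like protein, was at 4.97, 6.635, 3.88 and 9.34 CPM in old mice 2, 2-2, 2-3 and 3 and at 0 in all 5 young mice. Its old counts came from 8 cells (edgeR adjusted p = 0.0227). Against a floor of 3 counts over the young group, its pooled counts were at least 91.97-fold higher, a bound that covers counting error only. Unstimulated ST-HSC held it in both ages, at 28.5 CPM in old and 14.1 CPM in young mice.

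Amacr, the peroxisomal and mitochondrial racemase of branched-chain fatty acids, was at 10.2, 8.01, 3.99 and 6.40 CPM in the old mice in the same order and at 0.124 CPM in young mouse 3 alone among the young. The old counts came from 6 cells, of which 1 held 49.5%, and the 2 young counts from 1 cell, a ratio of 167.5 (95% exact interval 46.1 to 1389, counting error only; edgeR adjusted p = 0.04). Frmd4b, a scaffold protein of the band 4.1 family, was at 4.30, 60.5, 21.8 and 5.74 CPM in the old mice and at 0.8665 CPM or less in the young. It had 829 counts in 18 old cells and 11 counts in 3 young cells, a ratio of 68.6 (95% exact interval 38.2 to 138.01, counting error only; edgeR adjusted p = 0.0384). In unstimulated ST-HSC both genes had a higher mean in young than in old mice: Amacr at 11.8 CPM in old and 18.4 in young, Frmd4b at 19.7 and 33.8. Amacr lost its call without any single animal, Frmd4b without any except young mouse 1, and Ydjc without any old animal or young mouse 2-1, 2-3 or 3. Without the cells labelled cycling, all 3 lost it (adjusted p of 0.0558 for Frmd4b and Ydjc and 0.0753 for Amacr). Those cells held 0% of the old Amacr counts, 5.79% of the Frmd4b counts and 23.8% of the Ydjc counts. The log2 fold changes without them were 7.48 for Amacr, 6.50 for Frmd4b and 8.76 for Ydjc, against 7.37, 6.31 and 9.31 with them.

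In the fit with the mouse number shared by old and young labels as a block, over the 9 stimulated sums, no gene was called. The fit on the same 9 sums without the block also called none, while the main test on 16 sums called 5. The blocked log2 fold changes were 0.66 for Actg1, -1.79 for Serinc3, 9.06 for Ydjc, 6.72 for Frmd4b and 7.11 for Amacr, each with an adjusted p of 1.0. DESeq2 on the same sums and design as the main test called 1.54% of the genes tested, against 0.0393% in the main test.

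Several genes with small p did not pass the threshold, and their values follow as measured. Mid1, an X-linked ubiquitin ligase bound to microtubules, was at 25.5, 51.6, 119.6 and 77.4 CPM in old mice 2, 2-2, 2-3 and 3 and at 1.71, 1.64, 9.24, 4.71 and 4.41 CPM in young mice 1, 2, 2-1, 2-3 and 3. The groups did not overlap, with a log2 fold change of 3.98 ± 0.77 (SE; edgeR adjusted p = 0.11). Mid1 was higher in old mice in each other group measured: 64.2 against 5.77 CPM in unstimulated ST-HSC, 66.9 against 7.14 in stimulated LT-HSC and 100.04 against 4.03 in stimulated MPP. The edgeR adjusted p values there were 1.0, 0.0916 and 0.0854.

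Mmp13, a collagenase that cuts fibrillar collagen, was at 581.8, 12.8, 165.7 and 124.1 CPM in old mice 2, 2-2, 2-3 and 3 and at 0 in all young mice. Its 13653 counts lay in 7 old cells, of which 1 held 54.7% (edgeR adjusted p = 0.0658). Against the floor of 3 counts over the young group, its pooled single-cell counts were at least 4144-fold higher. This bound covers counting error only and not the spread between cells. No unstimulated ST-HSC sum held a count of it. Rad54l, a DNA repair helicase, had 430 counts in 11 old cells and 0 in young cells (edgeR adjusted p = 0.0658). By the same kind of bound, its pooled counts were at least 130.5-fold higher. Unstimulated ST-HSC held Rad54l in both ages, at 20.7 CPM in old and 16.5 CPM in young mice.

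Further genes higher in old were Tstd2 (log2 fold change 2.02 ± 0.52, edgeR adjusted p = 0.529) and Uspl1, a SUMO protease (1.24 ± 0.33, 0.559). On the lower side, Plac8, a small cysteine-rich protein of myeloid and lymphoid progenitors, was at 73.5 ± 25.6 CPM in old and 209.1 ± 93.4 CPM in young mice (-1.49 ± 0.35, edgeR adjusted p = 0.383). Old mouse 2-3 overlapped the lowest young animal for Plac8. Pdk3, a kinase that inhibits pyruvate dehydrogenase, was at 65.4 ± 10.7 against 124.5 ± 33.3 CPM with no overlap (-0.96 ± 0.26, adjusted p = 0.559). Cnpy4 (-2.31), Fdft1, the squalene synthase (-2.43), and the pseudogenes Tmem181b-ps (-1.40, adjusted p = 0.119) and Tmem181c-ps (-1.88) had lower log2 values as well and were not called. The Tmem181 copies are near-identical, so their counts are uncertain.

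Antigen presentation genes were the list with the largest share of members at an unadjusted p under 0.05 among the 16 lists drawn in the plot of list members. Of 24 tested members, 20 (83.3%) had a log2 fold change above 0, against 51.4% of all genes. At that p 7 were higher, against 4.15% of all genes, none was lower, and none was called. The list median was 0.20 against 0.02 over all genes, and it stayed above 0 in all 22 alternative settings. The class II genes of this list encode molecules that show peptides to CD4+ T cells. H2-Aa, the class II alpha chain, was at 364.4, 261.01, 303.3 and 262.4 CPM in old mice 2, 2-2, 2-3 and 3 and at 93.7, 49.3, 161.02, 59 and 101.3 CPM in young mice 1, 2, 2-1, 2-3 and 3. The groups did not overlap, with a log2 fold change of 1.68 ± 0.35 (SE; edgeR adjusted p = 0.149).

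Cd74, the invariant chain that guides class II molecules, was at 546.02 ± 178.7 CPM in old and 230.6 ± 80.9 CPM in young mice with no overlap (log2 fold change 1.22 ± 0.50, edgeR adjusted p = 0.719). H2-Ab1, the beta chain, was at 435.8 ± 140 and 200.8 ± 199.9 CPM and overlapped (1.35 ± 0.51, adjusted p = 0.689), with young mouse 2-1 at 507.2 CPM. H2-Eb1 was at 168.4 ± 47.6 and 49.7 ± 57.1 CPM without overlap (1.79 ± 1.13, adjusted p = 0.903). Tapbpl, a peptide editor of class I molecules, had a log2 fold change of 1.502 ± 0.51 (adjusted p = 0.576). H2-Aa was also higher in old mice in unstimulated ST-HSC, at 127.9 against 48.9 CPM, and it was called in stimulated MPP, at 164.6 against 27.3 CPM (edgeR adjusted p = 0.017). Class I and class II genes have close relatives, and reads common to them were divided by estimate.

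Markers of other cell types, some of which carry class II molecules, were summed in the same animals. Over the list of 13 plasma and B cell markers in the table, the summed level was 511.2 to 1151 CPM in old and 180 to 750 CPM in young mice. It was carried mainly by Irf4 (mean 399.03 CPM in old and 277.9 in young mice) and Xbp1 (267.9 and 190.1 CPM), transcription factors that other cells also express. Prdm1, the plasma cell factor Blimp-1, was at 56.004 CPM in old and 19.4 CPM in young mice. Sdc1 had the opposite order, at 4.42 CPM in old and 11.1 CPM in young mice, and Cd79b was at 2.65 and 3.41 CPM. The remaining markers had few or no counts, with Mzb1 at 0 counts in all animals, Cd79a at 10 old and 11 young counts and Ms4a1 at 0 and 5. Of its 6 tested members none was called, and the part of such cells in the class II values was not tested. The macrophage list of 15 genes summed to 74.7 to 127.97 CPM in old and 47.4 to 148.13 CPM in young mice. Its members differed in direction, with Vcam1 at 78.8 CPM in old and 48.4 CPM in young mice and Spic at 6.41 and 42.03 CPM. Emr1 had 0 old counts and 1 young count. T and NK cell markers summed to 40.6 to 47.98 CPM in old and 16.6 to 98.4 CPM in young mice, with Cd3e at 0 throughout. Among them Nkg7 was at 17.6 CPM in old and 5.02 CPM in young mice, and Lck at 11.7 and 23.9 CPM.

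Of 51 tested actin cytoskeleton genes, 32 (62.7%) had a log2 fold change above 0, against 51.4% of all genes, with a median of 0.08. Actg1 was called. Including it, 5 were higher at an unadjusted p under 0.05 and none was lower, against 4.15% and 2.4% of all genes. Actr3, a core subunit of the Arp2/3 complex that branches actin filaments, was at 758.8 to 996 CPM in old and 456.7 to 685.2 CPM in young mice (log2 fold change 0.63 ± 0.18, edgeR adjusted p = 0.559). Its partner Actr2 was at 243.1 ± 66.7 and 215.6 ± 78.9 CPM. Dstn, the actin-severing destrin, was at 120.6 ± 4.48 CPM in old and 73.1 ± 17.2 CPM in young mice (0.72 ± 0.24, adjusted p = 0.576), and neither Actr3 nor Dstn overlapped between ages. Of 11 tested tubulin genes 10 had a value above 0, with a median of 0.52. Tubb4b was at 661.9 CPM on average in old against 478.9 CPM (0.50 ± 0.16, adjusted p = 0.559) and Tuba1b at 753.6 ± 77.99 against 567.5 ± 81.7 CPM (0.40 ± 0.18, adjusted p = 0.753). Tubulin genes are close copies of each other, which leaves their division uncertain.

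The NF-kB and Toll-like receptor response genes showed no called member. Of 40 tested, 28 (70%) had a log2 fold change above 0, against 51.4% of all genes, and the median was 0.19. At an unadjusted p under 0.05, 2 were higher, against 4.15% of all genes. Nfkbia, the NF-kB inhibitor induced by its own target, was at 1382 to 2256 CPM in old and 1535 to 1937 CPM in young mice. Icam1, an adhesion molecule, was at 1072 to 1386 and 1055 to 1318 CPM, and Cd83 at 3035 to 4336 and 3683 to 5966 CPM. The members with the smallest p were Traf2, a signalling adaptor of the TNF receptor, at 147.8 ± 19.9 against 77.02 ± 30.6 CPM (0.94 ± 0.37, edgeR adjusted p = 0.716), and Clic4, at 807 ± 209.05 against 556.9 ± 76.97 CPM (0.49 ± 0.20, adjusted p = 0.719). Neither overlapped between ages.

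Of 30 receptors and adaptors of the Toll-like receptor pathway, 16 (53.3%) had a value above 0, against 51.4% of all genes. The median was 0.06, with the sign turning to negative within plate set A and without old mouse 2-2 or 2-3. Tlr2 was at 43.9 to 89.8 CPM in old and 28.99 to 75.1 CPM in young mice, Tlr4 at 0.342 to 25.8 and 0 to 27.2 CPM, and Cd14, the co-receptor of LPS, at 19.7 to 119.2 and 5.85 to 48.6 CPM. All 3 overlapped. Map3k7, the kinase TAK1 that links these receptors to NF-kB, was at 17.1 to 73.6 against 0.149 to 15.9 CPM without overlap (2.35 ± 0.77, edgeR adjusted p = 0.559).

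Among 21 cytokine and chemokine genes, 11 (52.4%) had a log2 fold change above 0, against 51.4% of all genes. At an unadjusted p under 0.05, 2 were higher and 3 lower, against 4.15% and 2.4% of all genes. The median of the 21 genes, 0.35, turned negative within plate set B and without old mouse 2. Tnf was at 23.7 to 98.6 CPM in old and 7.57 to 148.01 CPM in young mice, Il6 at 7.39 to 73.2 and 0 to 54.5 CPM, and Ccl5 at 110.8 to 2388 and 247.5 to 1160 CPM. Il1b, a pyrogenic cytokine, was at 33.5, 0, 0 and 6.10 CPM in old and 777, 0, 0, 254.7 and 146.8 CPM in young mice, from 4 old and 9 young cells (edgeR adjusted p = 0.695). Of 34 interferon response genes, 14 had a value above 0 and 2 were higher at an unadjusted p under 0.05. The interferon median was -0.05, with a positive sign in 7 of the alternative settings. Isg15, a ubiquitin-like protein, was at 73.9 to 204.3 CPM in old and 31.3 to 99.5 CPM in young mice (1.16 ± 0.35, edgeR adjusted p = 0.559), and Rsad2, the antiviral viperin, at 1265 to 6378 and 353.2 to 2807 CPM (1.11 ± 0.52, adjusted p = 0.756).

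**Figure D3:**
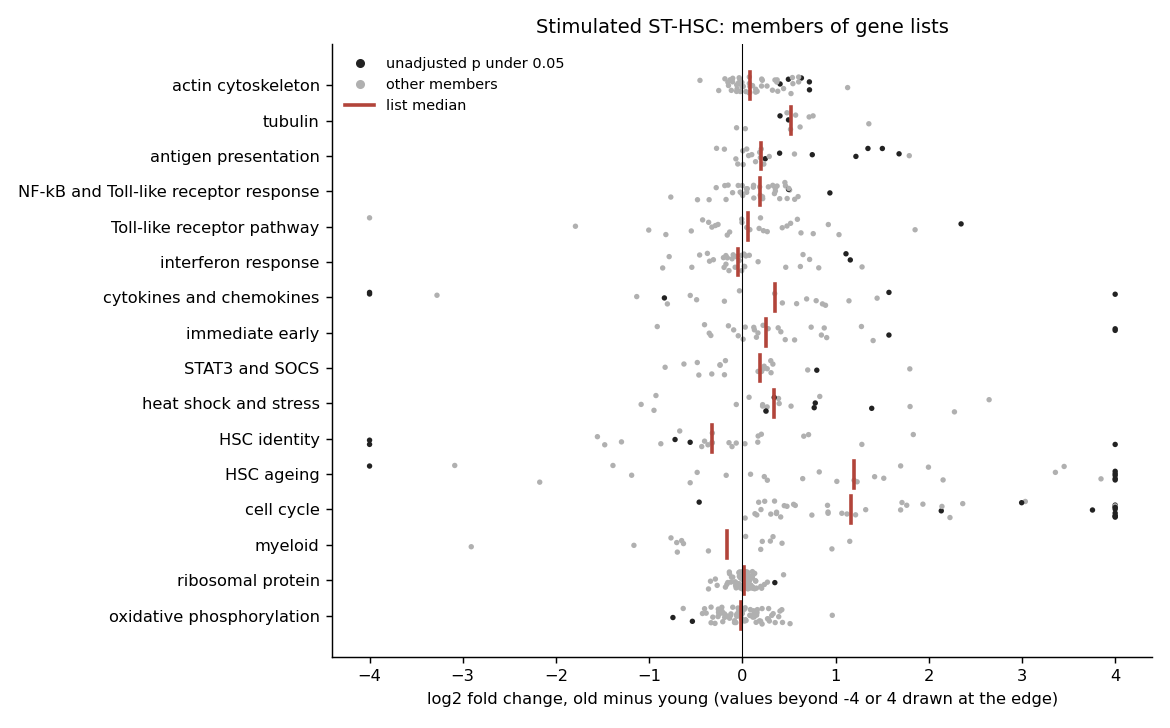
Log2 fold change, old minus young, of each tested member of 16 gene lists in stimulated ST-HSC; dark points have an unadjusted p under 0.05, grey points do not, and the red bar is the list median. Antigen presentation (median 0.20) has 7 dark points above 0 and none below, the HSC ageing and cell cycle medians lie at 1.20 and 1.17, and the ribosomal and oxidative phosphorylation medians lie at 0.02 and -0.01.

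Stem cell identity genes leaned lower in old mice. Of 27 tested, 9 (33.3%) had a log2 fold change above 0, against 51.4% of all genes, and the median was -0.32. At an unadjusted p under 0.05, 1 was higher and 4 lower, against 4.15% and 2.4% of all genes, and none was called. Kit, the stem cell factor receptor, was at 144.3, 498.9, 558.5 and 207.97 CPM in old mice 2, 2-2, 2-3 and 3 and at 246.8, 409.2, 562.8, 702.1 and 445.004 CPM in young mice 1, 2, 2-1, 2-3 and 3 (-0.72 ± 0.22, edgeR adjusted p = 0.559). Kit was higher in plate set B in both ages, so its animals overlapped. Cd34, a sialomucin of progenitors, was at 306.8 ± 46.7 CPM in old and 440.9 ± 135.1 CPM in young mice (-0.56 ± 0.23, adjusted p = 0.719). Ly6a, the Sca-1 antigen, was at 109.03 to 134.3 and 47.1 to 296.1 CPM.

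Of 29 genes known to be higher in aged HSC, 21 (72.4%) had a log2 fold change above 0, against 51.4% of all genes. At an unadjusted p under 0.05, 5 were higher and 1 lower, against 4.15% and 2.4% of all genes. The median was 1.20 over all 29 and 0.74 over the 16 with a mean of at least 10 CPM. Plscr2, a phospholipid scramblase, was at 66.3, 107.7, 50.7 and 142.7 CPM in old mice 2, 2-2, 2-3 and 3, and at 0, 1.64, 23.2, 11.6 and 0.435 CPM in young mice 1, 2, 2-1, 2-3 and 3 (4.28 ± 1.22, edgeR adjusted p = 0.559). Wwtr1, the YAP partner TAZ, chosen after its values were seen, was at 16.4 to 82.6 and 0 to 14.6 CPM (4.67 ± 1.69, adjusted p = 0.653). Both genes separated the ages without overlap. Selp was at 7.64 to 39.9 and 0 to 39.6 CPM and Vwf at 0 to 8.16 and 0 to 10.4 CPM. Itgb3 was at 396.8 to 658.9 CPM in old and 340 to 530.5 CPM in young mice.

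Of 21 heat shock and stress genes, 17 had a value above 0 and 5 were higher at an unadjusted p under 0.05, with a median of 0.34 and none called. Hsp90b1, the chaperone of the endoplasmic reticulum, was at 234.7, 236.5, 369.6 and 211.7 CPM in old mice 2, 2-2, 2-3 and 3 against 116.3 to 199.98 CPM in young mice (0.78 ± 0.23, edgeR adjusted p = 0.559). Hsph1 was at 191.5 ± 63.1 against 69.7 ± 44.3 CPM (1.39 ± 0.54, adjusted p = 0.695). Of 77 ribosomal protein genes 46 (59.7%) had a value above 0 (median 0.02), against 51.4% of all genes. Of 77 oxidative phosphorylation genes 34 (44.2%) did (median -0.01). The signs of both medians changed between settings.

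Cells labelled cycling were more frequent in old animals, with overlap. They were 6 of 39 kept cells in old mouse 2, 5 of 27 in mouse 2-2, 0 of 26 in mouse 2-3 and 4 of 37 in mouse 3, against 1 of 14 in young mouse 1 and 0 in the other young mice. The mean share was 11.2% ± 8.10 (SD, n = 4) in old and 1.43% ± 3.19 (SD, n = 5) in young mice (two-sided exact permutation p = 0.0952). Without old mouse 2-3 the difference was 13.5 percentage points (exact p = 0.0357). Within plate set A it was 10.7 points and within plate set B 9.26 points.

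Of 44 cell cycle genes, 43 (97.7%) had a log2 fold change above 0, against 51.4% of all genes. At an unadjusted p under 0.05, 11 were higher and 1 lower, against 4.15% and 2.4% of all genes. The median was 1.17 over all 44 and 0.37 over the 20 with a mean of at least 10 CPM. The median over all members was -0.15 without the cells labelled cycling. If that label was set from cell cycle expression, which was not checked here, a fall without these cells follows from the label. In plain CPM the list summed to 2931, 2990, 1264 and 2579 in old mice 2, 2-2, 2-3 and 3 and to 1752 to 2016 in young mice. Without the cells labelled cycling the old sums were 2277, 2045, 1264 and 2098 and the young sums 1630 to 2016. The groups overlapped with and without these cells, since old mouse 2-3 lay below every young animal in both. Rrm2, a subunit of ribonucleotide reductase, had 99.5% of its old counts in cells labelled cycling and was at 0 in young cells (edgeR adjusted p = 0.145). Its pooled counts were at least 241.9-fold higher, a bound that covers counting error only. The erythroid list, of which 9 of 12 tested members had a value above 0, had a median of 1.32 with these cells and -1.19 without them. Over its 5 members with a mean of at least 10 CPM the median was -0.08, and old mouse 2-2 stood at 2109 CPM on it.

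**Figure D4:**
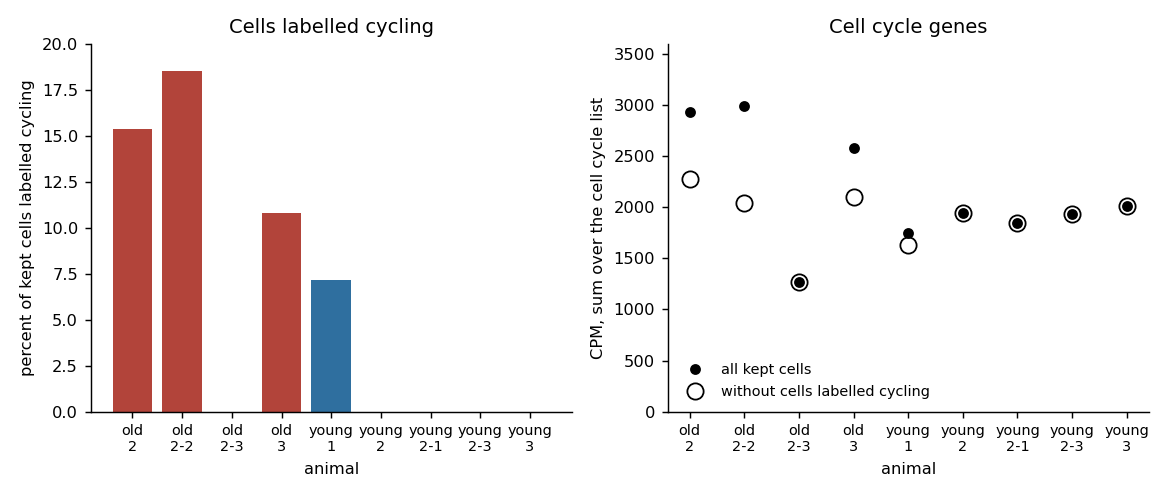
Left, percent of kept stimulated ST-HSC labelled cycling in each animal; right, CPM summed over the cell cycle list in each animal for all kept cells (filled points) and without cells labelled cycling (open circles). Old mice 2, 2-2 and 3 have 10.8 to 18.5% labelled cells, and their sums of 2579 to 2990 CPM drop to 2045 to 2277 CPM without them.

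Detection shares were taken from the 96.9% of kept cells that could be thinned to 100000 counts each, as the percent of an animal's cells with at least 1 count, and compared by two-sided exact permutation over animals. The smallest p that 4 against 5 animals allow is 0.0159, and over the 78 genes tested its adjusted value is 0.0884, so no gene could be called. These genes had been named largely for their differences in the sums of the same cells. Cd74, H2-Eb1 and Wwtr1 were not among the 78 and were chosen after their values were seen. Cd74 was detected in 92.5% ± 5.89 of old and 60.2% ± 17.5 of young cells. H2-Aa was detected in 57.3% ± 9.62 against 20.2% ± 8.23 and H2-Eb1 in 39.3% ± 10.8 against 10.1% ± 9.70, so a larger share of old cells had class II counts. Each of these separated the animals of both ages.

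The same was true of Mid1 (56.1% ± 6.28 against 14.9% ± 5.08), Plscr2 (39.9% ± 20.8 against 5.15% ± 5.23) and Wwtr1 (29.6% ± 12.6 against 2.05% ± 2.81). Actr3 was detected in 97.04% ± 2.18 of old and 79.3% ± 13.1 of young cells, Dstn in 54.4% ± 6.07 and 32.4% ± 3.32, and Clic4 in 90.6% ± 4.91 and 73.1% ± 3.14. Traf2 was detected in 55.5% ± 9.73 against 26.02% ± 6.77 and Hsp90b1 in 80.6% ± 3.16 against 58.4% ± 8.89. Serinc3 was detected in 87.99% ± 6.4 of old and 96.05% ± 4.3 of young cells (exact p = 0.0794). Ydjc was detected in 5.67% ± 2.91 and Mmp13 in 5.20% ± 3.40 of old cells and in 0 young cells.

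**Figure D5:**
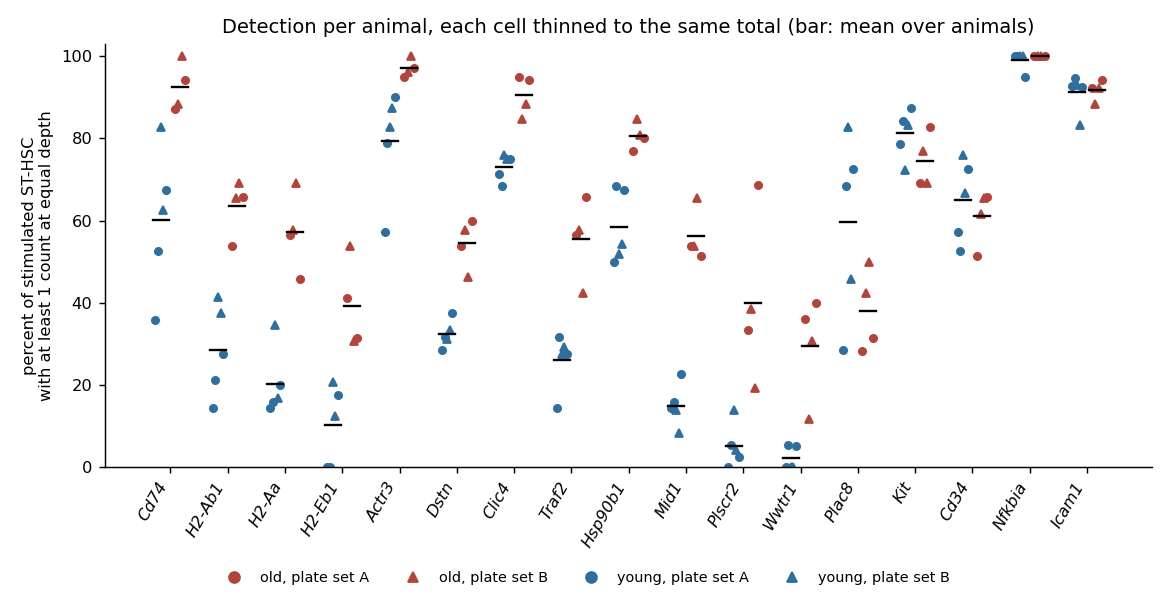
Percent of stimulated ST-HSC with at least 1 count at equal depth, by gene and animal (red old, blue young; circles plate set A, triangles plate set B; black bar the mean over animals). Class II genes, Mid1, Plscr2 and Wwtr1 separate or nearly separate the ages, while Nfkbia lies at 95 to 100% and Icam1 at 83.3 to 94.7% across the animals of both ages.

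Old animals had 3207 ± 540 detected genes per cell at that depth (SD, n = 4) and young animals 2745 ± 216.3 (SD, n = 5; two-sided exact permutation p = 0.143). The values were 3317, 3424, 2425 and 3661 in old mice 2, 2-2, 2-3 and 3, against 2547 to 3087 in young mice. Old mouse 2-3 lay below every young animal and the other 3 old mice above every young animal, and without mouse 2-3 the difference was 721.8 genes (exact p = 0.0357). Within plate set A the difference was 661.9 genes and within plate set B 301.6. The number of genes per cell was higher in old mice on average, as were the detection shares above other than that of Serinc3, and its part in them was not tested.

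The test of the age difference after stimulation against that before it called 0 of 12733 genes in edgeR (0.0%), with 4.72% at an unadjusted p under 0.05 and 0.856% called by DESeq2. The young side of that test had 3 unstimulated animals. Traf2 was at 33.6 CPM in old and 81.3 CPM in young unstimulated ST-HSC, the opposite order to that after stimulation (difference of the log2 fold changes 2.22, edgeR adjusted p = 0.745). Dstn was at 108.003 against 120.9 CPM without stimulation (difference 0.87, adjusted p = 1.0). H2-Aa (0.32), Mid1 (0.69) and Plac8 (-0.05) had smaller differences of this kind, each with an adjusted p of 1.0.

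Against stimulated LT-HSC, edgeR called 2 of 14451 genes whose age difference differed (0.0138%), Rad54l and Syk, and against stimulated MPP it called 3 (0.0208%), Rad54l, Clec1a and Plxna1. The populations come from the same animals, and with the animal as a block Clec1a and Plxna1 were no longer called, whereas Rad54l remained in both comparisons and Syk in that with LT-HSC. Actg1 in stimulated LT-HSC was at 14588 ± 1336 CPM in old and 6734 ± 785 CPM in young mice (log2 fold change 1.10, edgeR adjusted p = 0.000836), and in stimulated MPP at 6157 ± 1006 and 4855 ± 646.8 CPM (0.32, adjusted p = 0.567). The age difference of Actg1 in ST-HSC lay between them, -0.33 relative to LT-HSC (adjusted p = 0.452) and 0.42 relative to MPP (adjusted p = 0.4). Syk, a kinase of immune receptors, was at 53.7 to 131.3 CPM in old and 35.1 to 154.3 CPM in young ST-HSC. In stimulated LT-HSC it was at 7.93 to 24.3 CPM in old and 58.04 to 113.1 CPM in young mice.

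Wells of 100 sorted ST-HSC from the same animals, which the single-cell sums did not use, gave 0 calls among 2947 genes in edgeR, with 93 at an unadjusted p under 0.05 and 0 calls in DESeq2. They held 37466 to 607320 counts per stimulated animal. Actg1 was at 6734 ± 1130 CPM in old and 3928 ± 1397 CPM in young pools (log2 fold change 0.99, edgeR unadjusted p = 0.00649, adjusted p = 0.995). Serinc3 was at 110 ± 40.6 and 420.9 ± 190.1 CPM (-1.75, unadjusted p = 0.00529, adjusted p = 0.995). Both genes thus had the direction of the single-cell sums. Ydjc had 0 counts in the old and 1 in the young pools, Amacr 0 and 3, and Frmd4b 1 and 1. By mean CPM over animals none of these was higher in old pools, but counts this few cannot show a direction. Mid1 had 18 counts in old and 1 in young pools.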

How the data were processed

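SMART-seq2 libraries of single cells and of wells of 100 cells were analysed. Reads had been turned into expected counts with RSEM against mm9, per the submitters' processing notes, and the deposited tables hold these expected counts and TPM values as the authors made them for 23366 genes. The RSEM version and the gene annotation are not given in the sources used here. Of the table columns, 487 count columns and 1625 TPM columns hold wells of the series outside this comparison and its references and were not used. Groups, mouse numbers and plates were taken from the sample characteristics, because the well titles of plate 4 give other mouse and plate numbers. Whether mouse numbers such as 2 and 2-2 are different animals rests on that label, and p-values measure the spread between these animals.

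Expected counts were rounded and summed over the kept cells of each animal, population and treatment with at least 5 cells. Sums were scaled by TMM, filtered with filterByExpr and tested with edgeR 4.0.16 (glmQLFit and glmQLFTest, two-sided, R 4.3.3), with Benjamini-Hochberg adjustment over all genes tested and a threshold of 0.05. The fit held all 16 ST-HSC sums, with plate set as covariate, and fits across populations held all 48 sums. Exact permutation tests over animals used scipy 1.17.1. Kept cells held 12382 to 852988 counts (median 384562). Ratios of pooled counts have 95% exact intervals, which cover counting error only, since the reads carry no molecular identifiers. Alternatives were DESeq2 1.42.0, limma 3.58.1 on log2(mean TPM + 1) or + 0.1 where the TPM averaged 5 or more, other filters, plate sets and cells, and each animal left out. On simulated sums for the old against young comparison, edgeR recovered 5 of 50 genes changed 2-fold, 36 changed 4-fold, 44 changed 8-fold and 50 changed 16-fold, with 1 false call. The changed genes were drawn from those averaging at least 50 CPM, and counts followed the fitted spread. Ydjc, Amacr and Frmd4b averaged less, so the recovery rates do not cover them.

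Old and young mice share the numbers 2, 3 and 2-3. Deviations from the group means of same-numbered sums correlated at 0.118, 0.117 and 0.137 over 5230 genes, and at -0.0106, -0.00795 and -0.0229 after the plate set means were removed. The first set is above the limit used here to treat the numbers as pairing the samples, although the labels do not say that a number marks a shared batch. A fit with the number as a block is therefore given beside the calls.

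The members and gene lists were chosen with earlier results of these data known. Named genes are those past the threshold, up to 6 higher and 6 lower genes ranked by p among those averaging 5 or more on the log2 CPM scale, the 3 or fewer best-ranked members of every list given, a fixed set of inflammatory, receptor and stem cell genes, and genes called in the other contrasts. Predicted symbols were counted and not described. Cd74, H2-Eb1, Serinc1, Serinc5, Actr2, Wwtr1, Selp, Vwf, Xist and the markers of other cell types named singly were chosen after their values were seen. Promoter sequence came from RefSeq GRCm38.p6, another build than that of the counts.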

Additional observations from a re-analysis of the deposited data

Results flagged for a closer look

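Of 68 groups of 4 or 5 animals screened for a value far from the rest, 8 stood out, and chance alone sets about 1 in 20 groups apart. In young mice these were Amacr in mouse 3, at 0.124 CPM with the others at 0, Cd74 in mouse 2-1 at 373.02 CPM and Traf2 in mouse 1 at 23.3 CPM. The share of cells labelled cycling was 7.14% in young mouse 1 and 0 in the other young mice, which is 1 cell of 14. In old mice, mouse 2-3 was far from the rest for Plac8 (111.7 CPM) and Hsp90b1 (369.6 CPM), mouse 3 for the summed actin cytoskeleton list (39498 CPM) and mouse 2-2 for the erythroid list (2109 CPM).

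The age difference itself differed between populations in edgeR for Rad54l, by 13.40 on the log2 scale between stimulated ST-HSC and LT-HSC (adjusted p = 5.16e-07) and by 9.31 between ST-HSC and MPP (adjusted p = 0.000857). Rad54l was at 8.90 CPM in old and 0 in young ST-HSC, at 1.24 and 15.5 CPM in LT-HSC and at 26.6 and 20.2 CPM in MPP. Syk differed by 2.64 between ST-HSC and LT-HSC (adjusted p = 0.000318), and its animals overlapped between ages in ST-HSC but not in LT-HSC. Clec1a differed by 16.13 and Plxna1 by 13.80 between ST-HSC and MPP (adjusted p = 0.0445 for each). Both lost the call with the animal as a block, Clec1a also without any single animal other than young mouse 3, and Plxna1 without any other than young mouse 2 or 3. The fitted values of Rad54l, Clec1a and Plxna1 involve groups at or near 0 counts, depend on the prior count and are no bounds. Without the cells labelled cycling, 0 genes differed between ST-HSC and MPP, and Syk was still called against LT-HSC but Rad54l was not.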

How the results depend on the processing

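The share of tested genes called in stimulated ST-HSC, 0.0393% (5 genes), was 1.54% with DESeq2, 0.522% without a filter on low counts, 0.138% and 0.127% with limma on log2(mean TPM + 1) and + 0.1, 0.0162% without cells labelled cycling, and 0 with only the 9 stimulated sums, with the mouse number as a replicate block, or in either plate set alone. With 1 animal left out it was 0 to 0.0529%: 0 calls when old mouse 2-2 or 3 was left out, 1 for old mouse 2-3 or young mouse 2-3, 2 for young mouse 3, 3 for young mouse 2 or 2-1, 4 for old mouse 2 and 7 for young mouse 1. The settings not listed gave 5 or 6 calls. For the age difference in the response, 0 calls became 0.856% with DESeq2, 0.311% without the filter and 0 to 0.00799% with 1 animal left out (1 call, in the fit lacking old mouse 2-3), and stayed 0 with the animal as a replicate block. Relative to LT-HSC, 0.0138% (2 genes) became 2.42% with DESeq2, 1.72% without the filter, 0.0484% with the animal as a block and 0.0199 to 0.0973% without 1 animal, the highest (14 genes) lacking young mouse 2. Relative to MPP, 0.0208% (3 genes) became 1.69%, 0.877%, 0.00692% and 0.0066 to 0.021% in the same order, and 0 without cells labelled cycling. With 1 animal left out, genes per cell at equal depth differed by 309.9 to 721.8 and the cycling share by 7.30 to 13.5 percentage points; both passed only without old mouse 2-3. Pools of 100 cells and detection shares gave 0 calls in every setting. Of 1217 single-gene alternatives over 57 genes, 1104 kept direction and side of the threshold, 58 lost it, 55 gained it and 0 changed sign. The causes, among them the fewer degrees of freedom of fits on fewer animals or sums, were not tested. At this size 2-fold changes were mostly missed in simulated data, which changed only the better-counted genes.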
